A study of Sus scrofa with 23 samples.

Results

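Maternal transcripts that had largely left the embryo by the 4-cell stage were followed through the pre-implantation development of in vivo fertilized and cloned pigs. They were defined on the in vivo fertilized Duroc embryos (IV-D group) as genes whose oocyte FPKM value was 20 or more, with a 4-cell value of at most 0.25 times that of the oocyte. FPKM counts fragments relative to gene length in kilobases and to the size of the library. This gave 221 of the 8603 genes of the table, or 10.6% of the 2086 genes that reached 20 FPKM in the IV-D oocytes, and 169 of the 221 carried a gene symbol. The in vivo oocyte and 4-cell values chose the genes, so their fall between these stages is a description and not a result.

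A fully grown oocyte is transcriptionally silent and runs on stored mRNA, which keeps the embryo going until its own genome is switched on. During the maternal-to-zygotic transition the stored mRNA is removed, first by factors already in the egg, among them BTG4, an adaptor that brings the CCR4-NOT deadenylase to mRNAs, and later with the help of zygotic products. In the pig the major wave of genome activation falls at about the 4-cell stage. Stored mRNAs can carry a short poly(A) tail that is lengthened when they are translated, under the control of elements in the 3′UTR such as the cytoplasmic polyadenylation element.

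Pooled oocytes or pooled embryos gave each of the 23 libraries, with 1 library per condition, so no value has an error between pools and no test between conditions was possible. IV-D oocytes were MII oocytes of 2-year-old Duroc sows in estrus. IV-D embryos were flushed from Duroc sows inseminated with semen of a single Duroc boar, so the embryos were paternal half-siblings of mixed sex. According to the paper, same-stage embryos of a sow were pooled as a sample, so stage and dam cannot be told apart in IV-D embryos. NT-D and NT-LW embryos were made by nuclear transfer of ear fibroblasts of that Duroc boar and of a Laiwu boar, each 1 year old and each the only donor line of its group, into enucleated oocytes of hybrid sows matured in vitro, and all clones were therefore male and were cultured in vitro. The oocyte library NT-D-OC holds those recipient oocytes and serves both clone groups as their oocyte stage. Their comparisons share it and the IV-D libraries. The blastocyst was cut into a part with inner cell mass and trophectoderm (IT) and a part with trophectoderm only (TE). cDNA was primed on poly(A) tails, so the loss of a transcript and the shortening of its tail cannot be told apart, and since FPKM is a share of the library, fewer transcripts per embryo and a growth of all other RNA cannot be told apart either.

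The depth recovered from the values was 14952784 to 22991067 fragments per library. All 8 oocyte markers of the table were at 1 FPKM or more in both oocyte libraries and in the 3 4-cell libraries. All 4 markers of immune and blood cells lay under 1 FPKM in those libraries, but all 4 reached it in the IV-D 2-cell library, with a sum of 52.7 FPKM against at most 0.396 in the 2-cell clones. Of 10 markers of cumulus and granulosa cells, the somatic cells around the oocyte, 5 reached 1 FPKM in either oocyte library, and their sum of 492 FPKM in IV-D-OC and 449 in NT-D-OC came mostly from RGS2, a regulator of G-protein signalling that is itself among the 221 genes. The 16 fibroblast markers, none among the 221, summed to 5.96 and 4.79 FPKM in the IV-D and NT-D oocytes, and at the 4-cell stage to 26.3 in IV-D, 246 in NT-D and 285 in NT-LW. In the IV-D 1-cell library they summed to 105.3 FPKM, with 11 of the 16 at 1 FPKM or more, and in the 1-cell clones to 163 and 182. The part of these cells or of this RNA in the values below was not tested.

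The 221 genes held 20.3% of all FPKM of the table in the IV-D oocytes. The share was 17.0% in 1-cell and 15.2% in 2-cell embryos, then 3.41% at the 4-cell and 2.34% at the 8-cell stage. In the recipient oocytes of the clones, which the selection did not use, the same genes held 17.5%, and in 4-cell embryos 4.89% (NT-D) and 4.45% (NT-LW). The median IV-D-OC level was 80.9 FPKM, 102 of the genes exceeded 100 FPKM, 19 exceeded 1000, and the highest, ENSSSCG00000003303, which has no symbol, reached 10836. The counts behind the low end were adequate for most of the list: the median number of fragments in the IV-D 4-cell library was 420, 8 genes had under 30, and 1 had none.

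Over the first 4 stages the median level relative to the oocyte was lowest at the 4-cell stage in all 3 groups. In IV-D the median level relative to the oocyte was 1.0 at the 1-cell stage, then 0.655 (2-cell) and 0.180 (4-cell). In NT-D the medians were 0.781, 0.664 and 0.248, and in NT-LW 0.773, 0.665 and 0.220. The 2-cell medians of the groups thus differed by little, and the clone groups stood above IV-D at the 4-cell stage, where IV-D had been selected to be low. From the 2-cell to the 4-cell stage the median difference of log2(FPKM + 1) was -1.85 in IV-D, -1.24 in NT-D and -1.39 in NT-LW. Among the 3 steps from the oocyte to the 4-cell embryo it was the lowest difference for 159 of 221 genes in NT-D and for 170 in NT-LW, where it was for 41.8% and 50.9% of all oocyte-abundant genes. In IV-D, where the selection favours this step, it was for 168 of the 221 and for 34.4%.

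**Figure D1:**
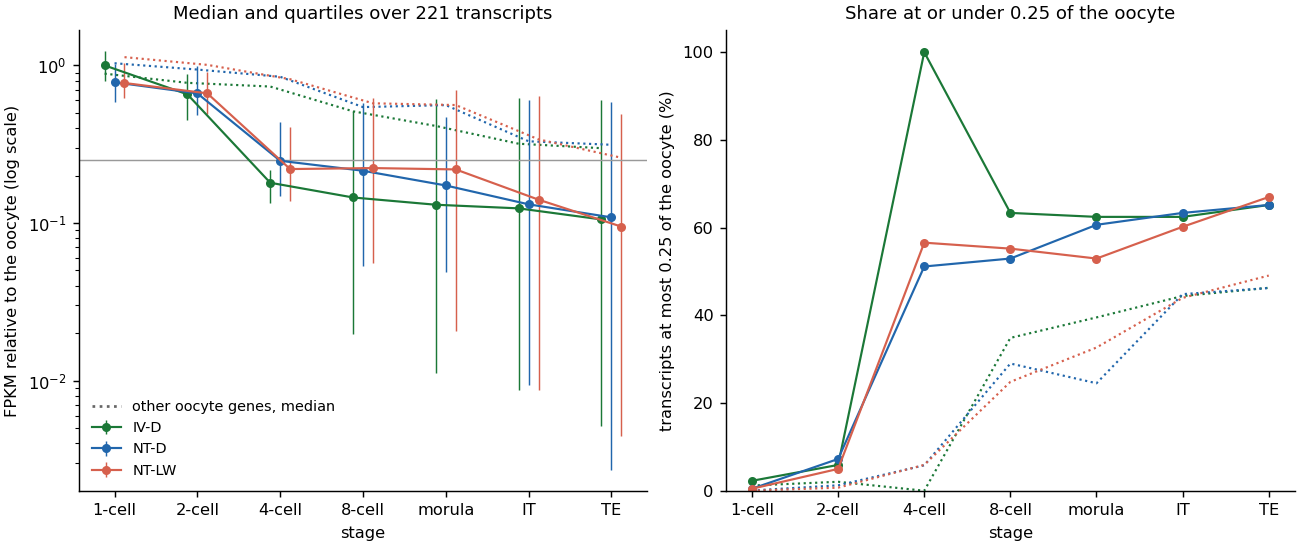
Left, the median (points) and quartiles (bars) over the 221 transcripts of the FPKM value relative to the oocyte, on a log axis, by stage and group; right, the percentage of transcripts at or under 0.25 of the oocyte. Dotted lines show the other 1865 genes with at least 20 FPKM in the IV-D oocyte, and NT-D-OC is the oocyte of both clone groups. The IV-D point at the 4-cell stage is 100% by the selection, and the clone groups reach 51.1% and 56.6% there against 5.79% and 5.90% of the other genes.

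Just over 50% of the list was cleared to the same degree in clones. At the 4-cell stage 113 of 221 genes (51.1%) were at or under 0.25 of the recipient oocyte in NT-D and 125 (56.6%) in NT-LW. Of all genes with 20 FPKM or more in the recipient oocyte, 12.6% were in NT-D and 12.9% in NT-LW, and of the 1865 other genes abundant in the IV-D oocyte 5.79% and 5.90%, with medians of 0.847 and 0.817. The genes cleared in both clone groups numbered 107, those in NT-D only 6, those in NT-LW only 18, and 90 were above 0.25 in both. Among these 90, 39 were above 0.5 of the oocyte in both groups and 9 were above the oocyte itself. The same selection made on the clone libraries gave 287 genes in NT-D and 294 in NT-LW. The genes shared with the 221 were 111 in NT-D, or 38.7% of its list and 50.2% of the IV-D list, and 121 in NT-LW, or 41.2% and 54.8%.

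By the 8-cell stage, 140 genes were at or under 0.25 of the oocyte in IV-D, where 37.9% of all oocyte-abundant genes were. The IV-D oocyte, by which these values are divided, was selected to be high, which favours low IV-D ratios. In NT-D 117 were, against 34.1% of genes abundant in its oocyte, and in NT-LW 122, against 30.7%. Of the 90 genes not cleared in either clone group at the 4-cell stage, 41 were at or under 0.25 in both at the 8-cell stage. Of the 1865 oocyte-abundant genes outside the list, 29% were in NT-D and 24.8% in NT-LW, each group taken alone. In all 3 groups together 104 of the 221 genes were, against 22.8% of all genes abundant in the IV-D oocyte.

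**Figure D2:**
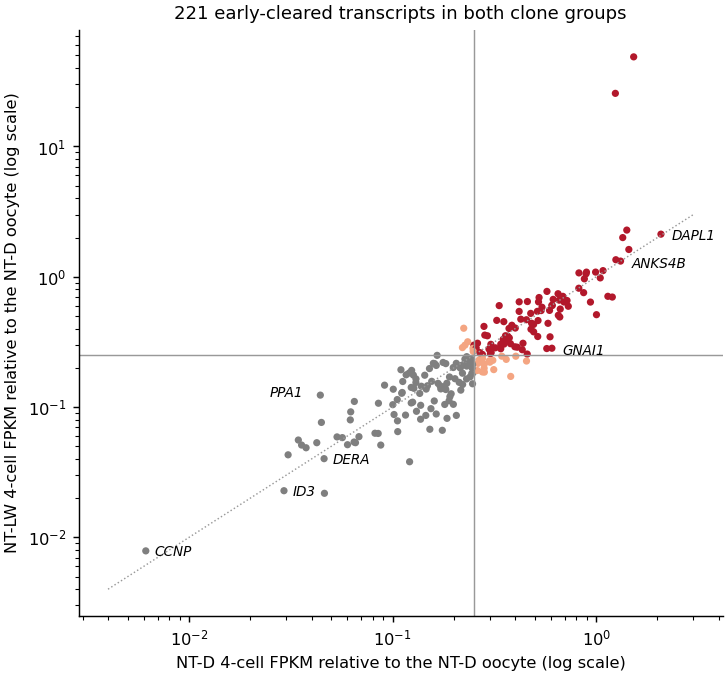
Each point is 1 of the 221 transcripts, placed by its 4-cell FPKM relative to the recipient oocyte in NT-D (x axis) and NT-LW (y axis), both on log axes; grey lines mark 0.25 and the dotted line marks equal values. Grey points (107) are cleared in both clone groups, red points (90) in neither and orange points (24) in 1 of them. Most points lie near the line of equal values, and the 2 points far above it are genes without a symbol.

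Of the genes with a symbol and the highest oocyte levels, OOSP2, an oocyte-secreted protein, was at 9461 FPKM in IV-D oocytes, 6803, 8216, 969 and 33.9 from the 1-cell to the 8-cell stage, then 4.99 in morulae and 3.17 in IT, with no fragment in TE, which allows up to 0.440 FPKM. In NT-D it was at 6454 in the oocyte, then 2421, 5854, 2254, 266 and 126 up to the morula, 1.86 in IT and 0.281 in TE. In NT-LW the values from the 1-cell stage on were 3468, 3378, 2137, 283, 28.8, 1.22 and 0.745. Cloned embryos thus kept 0.349 (NT-D) and 0.331 (NT-LW) of the oocyte level at the 4-cell stage, where IV-D kept 0.102, and all 3 groups were far below the oocyte by the 8-cell stage.

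BTG4 (ENSSSCG00000015020, chr9:39253116-39281327, Sscrofa11.1) was highest in the oocyte in all groups and lower at the 4-cell stage. Its IV-D values were 6335 FPKM in oocytes, 5585, 5469 and 1169 in 1-cell, 2-cell and 4-cell embryos, 16.9 in 8-cell embryos, and 2.72, 8.06 and 0.225 in morulae, IT and TE. NT-D values were 6183, 3874, 3823, 1199, 108, 111, 1.67 and 0.297, and NT-LW values from the 1-cell stage were 3405, 4199, 782, 290, 14.0, 0.666 and 0.334. The decay adaptor itself was thus among the cleared messages, and the NT-D 4-cell level was 1.03 times that of IV-D, with a 95% interval of 1.01 to 1.04 that covers counting error only, and NT-LW stood at 0.669 times IV-D. At the 8-cell stage the clones were higher, at 108 and 290 FPKM against 16.9. Of the 8 genes of the mRNA decay list with at least 20 FPKM in the IV-D oocyte, BTG4 was the only one among the 221, and the median level of these 8 at the 4-cell stage was 1.06 of the oocyte in IV-D, 1.14 in NT-D and 1.25 in NT-LW.

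OOEP, a scaffold member of the subcortical maternal complex that mammalian eggs need for early cleavage, differed more. In IV-D it was at 1284 FPKM in oocytes, 2564, 1413, 78.6 and 5.77 from the 1-cell to the 8-cell stage, and 0.743 and 0.923 in morulae and IT, with no fragment in TE (up to 0.449 FPKM). In NT-D it was at 1872, 1905, 1243, 323, 26.6, 6.87, 0.317 and 0.430, and in NT-LW at 1978, 1051, 258, 27.5, 1.14, 0.520 and 0.380 from the 1-cell stage. The 4-cell level was 4.11 times that of IV-D in NT-D (interval 3.74 to 4.51) and 3.28 times in NT-LW (2.99 to 3.61), yet OOEP counted as cleared in both, at 0.172 and 0.138 of the recipient oocyte. It was 1 of 3 genes of the complex with at least 20 FPKM in the IV-D oocyte, and the other 2 were not among the 221. OOEP and OOSP2 were short genes, with counted lengths of 447 and 456 bases.

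ID3, an inhibitor of basic helix-loop-helix transcription factors, and PSPH, which makes serine from phosphoserine, were on opposite sides of this comparison. ID3 was at 3405, 2276, 499 and 247 FPKM from the oocyte to the 4-cell stage in IV-D, at 5967, 3508, 589 and 175 in NT-D, and at 2353, 1610 and 136 from the 1-cell to the 4-cell stage in NT-LW. Its 4-cell level relative to the oocyte was lower in clones (0.029 and 0.023) than in IV-D (0.073). PSPH was at 1467, 1209, 874 and 217 FPKM over the same IV-D stages and at 1088, 779, 1059 and 536 in NT-D, with 632, 723 and 411 in NT-LW, so that the clones kept 0.493 and 0.378 of the oocyte level. In the blastocyst TE held 155 FPKM in IV-D, 166 in NT-D and 110 in NT-LW, and IT held 3.95, 129 and 147, so that the IV-D library of IT was low. Of the other genes at the top of the list, the proteasome import factor AKIRIN2 and the glutamate receptor scaffold GRIP1 were cleared in both clone groups, whereas INPP1, an inositol phosphatase, ACYP2, an acylphosphatase, and the sorting nexin SNX7 stayed above 0.25 in both.

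**Figure D3:**
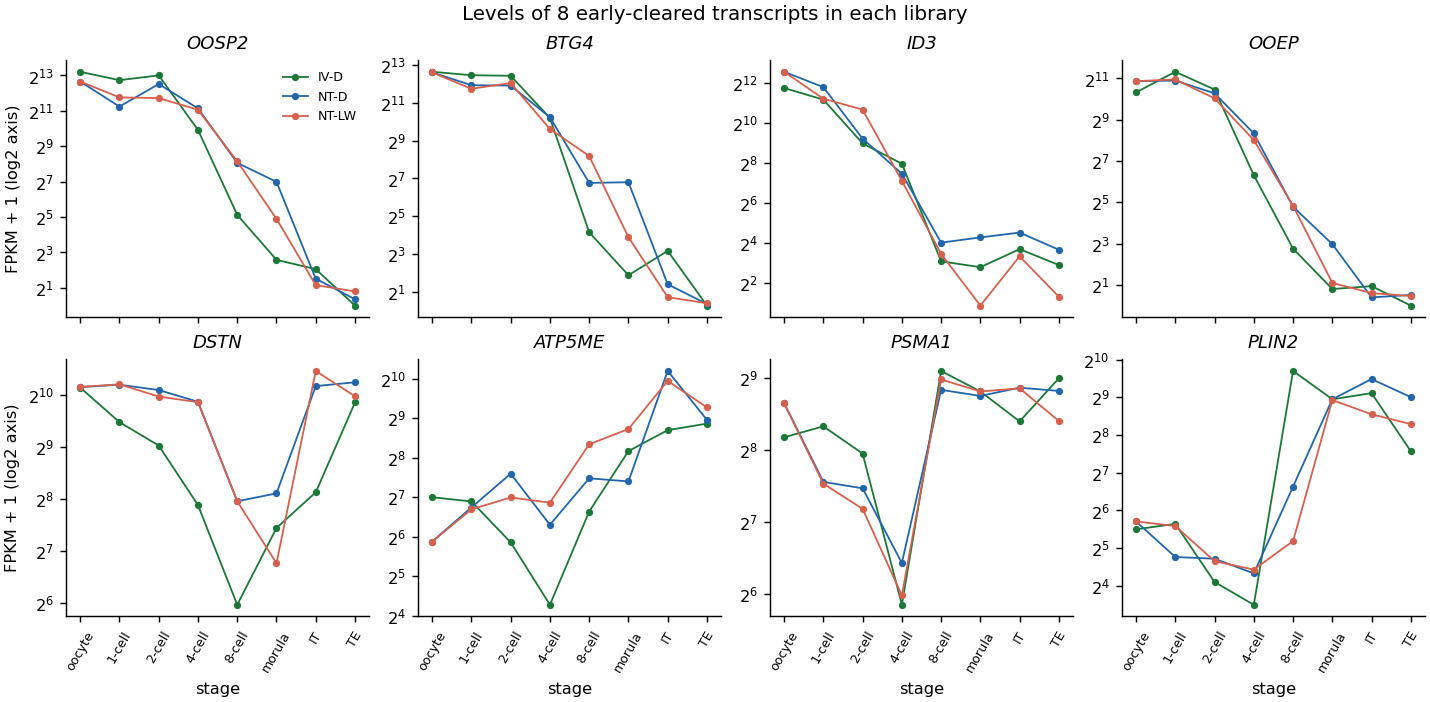
FPKM + 1 on a log2 axis in each library for 8 of the 221 transcripts, by stage, in IV-D (green), NT-D (blue) and NT-LW (red), with NT-D-OC drawn as the oocyte of both clone groups. OOSP2, BTG4, ID3 and OOEP go to low levels in all groups, DSTN stays near its oocyte level in 4-cell clones, and ATP5ME, PSMA1 and PLIN2 are higher at the 8-cell than at the 4-cell stage.

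The 3′ ends of these messages were read from the RefSeq annotation of Sscrofa11.1, in which 154 of the genes had a single position and 113 had a 3′UTR of at least 200 bases. Within the last 200 bases, read on the strand of the transcript, TTTTAT, the core of the cytoplasmic polyadenylation element, was present in 40.7% of the 113 genes, in 30.8% of the other oocyte-abundant genes and in 27.5% of all genes of the table with such a 3′UTR. The polyadenylation signal AATAAA was present in 80.5%, 69.9% and 67.0%. The Pumilio motif TGTANATA was present in 8.85%, 9.04% and 8.78%, and the AU-rich motif TATTTAT, which can overlap TTTTAT, in 9.73%, 9.04% and 8.93%. Genes cleared in both clone groups held TTTTAT in 42.9% of 56 cases and genes cleared in neither in 40.0% of 40. A match is a stretch of letters and not a proven site.

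Sites of TTTTAT, in capitals, in 3 genes with very high oocyte levels and in 3 that returned in later embryos show that both kinds of course occurred with the motif. All are written 5′ to 3′ on the transcript strand, with coordinates in Sscrofa11.1. BTG4 lies at chr9:39253216-39253245 (minus), ID3 at chr6:81422567-81422596 (minus), PSPH at chr3:16902883-16902912 (plus), PLIN2 at chr1:203694607-203694636 (plus), ACADM at chr6:137541583-137541612 (minus) and PSMA1 at chr2:44755214-44755243 (plus).
BTG4: ttttacatgaagTTTTATgtaaccctagtg
ID3: gtatattaaactTTTTATaaaagttaacat
PSPH: ttacctggagagTTTTATaatctgaattca
PLIN2: gcaacttgagctTTTTATttttcataaagg
ACADM: tagacttaagggTTTTATgttcatattctc
PSMA1: ctgtactaatgtTTTTATatgaagaacata

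The motif ended 112 bases before the annotated 3′ end of the transcript in BTG4, 38 in ID3, 162 in PSPH, 50 in PLIN2, 114 in ACADM and 65 in PSMA1. The polyadenylation signal stood closer to the end, as shown for BTG4 (chr9:39253120-39253149, minus) and for the actin-severing factor DSTN (chr17:26050320-26050349, plus), whose level stayed high in 4-cell clones.
BTG4: agtaacagtttaAATAAAcgtgctgtgttt
DSTN: ctggctttacgtAATAAAggaagcatttta

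The 221 genes were also short. The counted gene length, recovered from the FPKM values, had a median of 1697 bases, against 2652 for the other oocyte-abundant genes and 3182 for the table. In the annotation the 3′UTR had a median of 392.5 bases against 672.5 and 831, and the coding sequence 954 against 1290 and 1449. Among oocyte-abundant genes of at most 1000 bases, 53 of 263 (20.2%) were in the list, and of those over 4000 bases 30 of 433 (6.93%) were. Length moved with the IV-D values of all oocyte-abundant genes as well, whose median 4-cell level relative to the oocyte was 0.560 for genes up to 1000 bases, 0.614 up to 2000, 0.685 up to 4000 and 0.762 over 4000. In NT-D the medians of the same bins were 0.849, 0.622, 0.801 and 0.865, and in NT-LW 0.762, 0.615, 0.765 and 0.809, without a steady rise. The part of gene length in the difference between groups was not tested.

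A small set was low before the 4-cell stage. By the 1-cell or 2-cell stage 17 of the 221 genes had reached 0.25 of the IV-D oocyte, where 3.5% of all oocyte-abundant genes had, and 13 were there at the 2-cell stage itself. CCNP, of the cyclin family, was at 34.7 FPKM in IV-D oocytes, then at 47.3 (1-cell), 0.909 (2-cell) and 0.659 (4-cell). In NT-D it was at 139, 62.8, 1.03 and 0.850, but in NT-LW it was at 34.8, 16.7 and 1.09 from the 1-cell stage, so the level near 1 FPKM was reached a stage later there. TRIM50, a ubiquitin ligase, likewise went from 51.7 FPKM in 1-cell to 5.95 in 2-cell embryos in IV-D and from 98.3 to 22.1 in NT-D, while in NT-LW the 2-cell embryos held 142 FPKM and the 4-cell embryos 9.94. ID3, C5orf34, the radial spoke protein gene DNAJB13, the peroxisome ligase PEX2, and CUL1, the scaffold of SCF ubiquitin ligases, completed the 8 lowest at the IV-D 2-cell stage together with ANKS4B, a scaffold of microvilli.

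Single libraries could stand apart. ANKS4B was at 71.4 FPKM in IV-D oocytes and at 5.80, 16.9 and 9.76 over the next 3 stages, and at 24.8, 31.2, 27.3 and 32.7 in NT-D. CRHBP, which binds corticotropin-releasing hormone, was at 33.3, 1.98, 54.5 and 5.99 over the 4 IV-D libraries. With 1 pool per stage such a dip cannot be separated from variation between pools. The NT-LW 2-cell library stood apart as a whole, with 34.7% of all genes tested higher than in the IV-D 2-cell library by the fold rule defined below and 3.51% lower, but of the 221 genes 29 (13.1%) were higher and 32 (14.5%) lower.

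The transcripts that clones kept at the 4-cell stage were compared with the IV-D embryos by a fold rule, under which a gene counted as higher when log2(FPKM + 1) differed by more than 1 and 1 of the values was at least 1 FPKM. In NT-D 58 of the 221 genes were higher than in IV-D, and 8 were lower, where 9.74% of all genes tested were higher and 13.2% lower. In NT-LW 60 were higher and 14 lower, against 10.8% and 9.43% of all genes. On the log2 scale the median difference was 0.51 (NT-D) and 0.32 (NT-LW), and -0.02 and 0.03 over all genes. The IV-D 4-cell library chose the genes for low values, so an excess on this side is built into the list and is read as a description only. The 2 lists shared 45 genes, 77.6% of the NT-D list and 75% of the NT-LW list.

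TLE2, a Groucho-type corepressor, had the largest difference shared by both clone groups among genes with a symbol. It was at 23.5 FPKM in IV-D oocytes, 18.7, 6.67, 2.76 and 0.149 in the next 4 stages, and under 1 from there on. In NT-D it was at 35.1 in the oocyte and then 48.2, 17.8, 30.7 and 0.732, and in NT-LW at 27.5, 24.5, 33.8 and 0.838. The clones thus held 12.3 times (NT-LW, interval 10.7 to 14.1) and a like multiple (NT-D, interval 9.66 to 12.9) of the IV-D level at the 4-cell stage, and all 3 groups were under 1 FPKM at the 8-cell stage.

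DSTN, destrin, was one of the most abundant of these genes. It was at 1124 FPKM in IV-D oocytes, then 708, 518, 234, 61.2 and 172 up to the morula, 277 in IT and 921 in TE. NT-D values were 1132, 1167, 1087, 930, 246, 273, 1146 and 1206, and NT-LW values from the 1-cell stage were 1173, 997, 924, 246, 107, 1402 and 1000. The oocytes were alike, and the clones held 3.98 times (3.88 to 4.08) and 3.96 times (3.86 to 4.05) the IV-D level at the 4-cell stage. The lowest value came at the 8-cell stage in IV-D and NT-D and at the morula stage in NT-LW.

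DAPL1, a small protein linked to cell death and differentiation, was at 118, 110, 110 and 26.8 FPKM from the oocyte to the 4-cell stage in IV-D. The NT-D values were 86.6, 104, 226 and 180, and the NT-LW values were 113, 142 and 184 from the 1-cell stage. All 3 groups were low at the 8-cell stage, at 3.27, 10.6 and 20.5 FPKM. The ribonuclease P subunit RPP21 stood at 18.1 FPKM in IV-D 4-cell embryos against 111 and 104 in the clones, and returned to 145 in IV-D 8-cell embryos, where the clones were at 66.6 and 72.6.

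SLC46A2, a solute carrier of the proton-coupled folate transporter family, was at 46.9 FPKM in IV-D oocytes and 2.47 in 4-cell embryos, and at 103 in recipient oocytes and 22.9 and 21.8 in 4-cell clones. The lysosomal sialic acid exporter SLC17A5 was at 22.3 and 2.99 in IV-D, and at 64.6 in recipient oocytes and 14.2 and 18.5 in 4-cell clones. For both, the recipient oocyte began at more than 2 times the IV-D level. Relative to that oocyte SLC46A2 was cleared in both clone groups (0.222 and 0.211) and SLC17A5 in NT-D (0.220) but not in NT-LW (0.286). Of 21 solute carriers with at least 20 FPKM in the IV-D oocyte, 7 (33.3%) were early-cleared, against 10.6% of all oocyte-abundant genes. Of these 7, 5 were cleared in NT-D and 5 in NT-LW, where 51.1% and 56.6% of the 221 genes were. The cleared ones included SLC25A31, the germ cell ADP/ATP carrier, SLC35A1, the Golgi CMP-sialic acid transporter, and SLC25A32, a mitochondrial folate and flavin carrier. None of the 7 was back at 0.5 of the oocyte in later IV-D embryos, where 76 of the 221 genes were.

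Genes from several lists were cleared in every group. MAEL, of the piRNA pathway, ZAR1L, an oocyte RNA-binding protein, and GIN1, derived from a retrotransposon integrase, were cleared in both clone groups. So were the deubiquitinase USP33 and RGS2, which is on the list of cumulus markers. MAEL was at 166 FPKM in IV-D and 137 in recipient oocytes and at 15.2, 22.0 and 29.5 in IV-D, NT-D and NT-LW 4-cell embryos. RGS2 was at 352 and 319 in the oocytes and at 22.6, 41.6 and 49.3. In 1-cell and 2-cell embryos RGS2 was at 248 and 263 (IV-D), 228 and 200 (NT-D) and 247 and 134 (NT-LW). ZAR1L was at 74.6 in IV-D oocytes and 237 in the recipient oocytes, and at 14.8, 23.9 and 32.5. In these 3 genes the 4-cell order was IV-D, NT-D, NT-LW from low to high, and the clones lay at 1.45 to 2.20 times IV-D.

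Of the 29 nuclear genes of the respiratory chain and ATP synthase with at least 20 FPKM in the IV-D oocyte, 4 (13.8%) were early-cleared, against 10.6% of all oocyte-abundant genes, namely NDUFS5 and NDUFV2 of complex I, COX7C of complex IV and ATP5ME of the ATP synthase. None of the 4 was cleared in a clone group, where 51.1% (NT-D) and 56.6% (NT-LW) of the 221 genes were. ATP5ME was at 127 FPKM in IV-D oocytes, 118, 57.1 and 18.4 up to the 4-cell stage and 98.8 in 8-cell embryos. In NT-D it was at 57.8, 106, 193, 78.1 and 178, and in NT-LW at 103, 127, 116 and 324 from the 1-cell stage. The recipient oocyte held 0.455 times the level of the IV-D oocyte, and the 4-cell clones held 4.24 and 6.28 times the IV-D 4-cell level.

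NDUFS5 was at 66.0 FPKM in IV-D oocytes and 14.5 in 4-cell embryos, and at 37.6, 30.9 and 40.2 in recipient oocytes and the 4-cell clones. NDUFV2 was at 37.3 and 6.44, and at 23.3, 20.2 and 17.6. COX7C was at 42.9 and 9.85, and at 29.5, 21.2 and 19.4. In all 4 genes the recipient oocyte was lower and the 4-cell clones were higher than their IV-D counterparts. The selection took high IV-D oocyte and low IV-D 4-cell values, which favours both differences, so they are read as a description only. The median level of the 4 relative to the oocyte was 0.196 in IV-D, 0.845 in NT-D and 0.913 in NT-LW. The other 25 genes of this list, which the selection left out, had medians of 0.663, 0.739 and 1.16, and the 1865 oocyte-abundant genes outside the selection 0.734, 0.847 and 0.817.

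**Figure D4:**
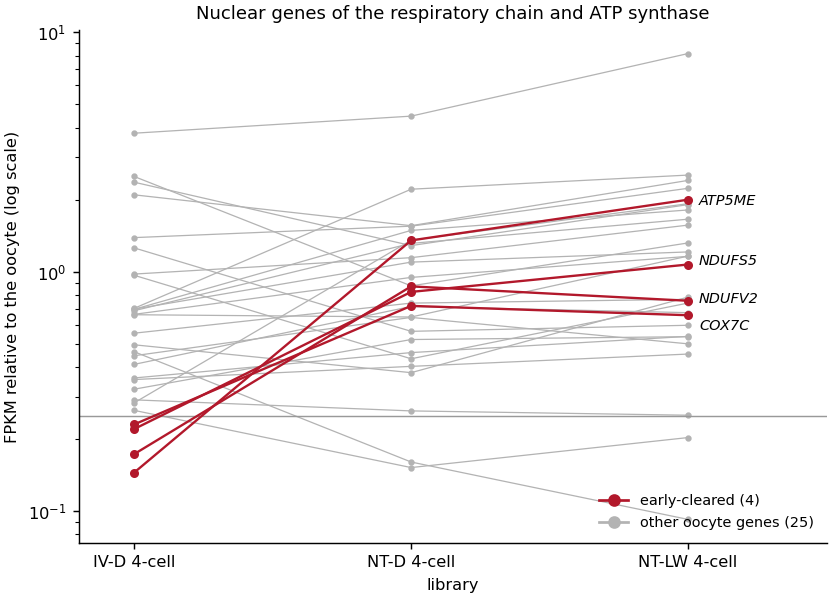
The 4-cell FPKM relative to the oocyte, on a log axis, for the 29 nuclear genes of the respiratory chain and ATP synthase with at least 20 FPKM in the IV-D oocyte, with a line for each gene across IV-D, NT-D and NT-LW. The 4 early-cleared genes (red) lie under the grey line at 0.25 in IV-D, where the selection placed them, and between 0.657 and 2.0 in the clones.

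Over the proteasome genes the medians ran the other way. Of 15 with at least 20 FPKM in the IV-D oocyte, 3 (20%) were early-cleared, against 10.6% of all oocyte-abundant genes. PSMA1, a subunit of the 20S core, was at 289 FPKM in IV-D and 403 in recipient oocytes and at 56.9, 85.6 and 62.4 in IV-D, NT-D and NT-LW 4-cell embryos. PSMA8, the germ cell form of a core subunit, was at 119 and 123 in the oocytes and at 18.9, 19.2 and 19.4, 3 nearly equal values. Both were cleared in all groups, whereas PSMD5, an assembly chaperone, was at 72.8 and 43.0 in the oocytes and at 13.2, 19.5 and 9.70, and thus cleared in NT-LW (0.226) but not in NT-D (0.455). Over the 15 genes the median 4-cell level relative to the oocyte was 0.607 in IV-D, 0.350 in NT-D and 0.366 in NT-LW, so that here the clones were the lower groups. The 1 cytosolic ribosomal protein gene, RPS24, was cleared in neither clone group, and the mitochondrial ribosomal protein genes MRPS14 and MRPL34 were at 0.193 and 0.161 of the oocyte in IV-D, 0.251 and 0.240 in NT-D and 0.299 and 0.171 in NT-LW.

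Few of the 221 genes differed between the clone groups. At the 4-cell stage 6 of the 221 genes were higher in NT-D than in NT-LW by the fold rule and 3 were lower, where 0.972% and 3.42% of all genes tested were. Of the 6, only CRHBP had a symbol, at 12.2 FPKM in NT-D, 5.49 in NT-LW and 5.99 in IV-D. Short of the rule lay GNAI1, an inhibitory G-protein subunit, at 14.8 and 6.92, PSMD5 at 19.5 and 9.70, the complex III assembly factor LYRM7 at 17.8 and 9.42, and CCDC160 at 4.64 and 2.06. Among the lower genes PPA1, the cytosolic pyrophosphatase, was at 4.77 FPKM in NT-D, 13.3 in NT-LW and 8.21 in IV-D, a ratio of NT-D to NT-LW of 0.358 with a counting interval of 0.284 to 0.446. The other 2, named after their values were seen, were ENSSSCG00000018061 and ENSSSCG00000018063, at 14.1 and 24.1 FPKM in NT-D, 291 and 770 in NT-LW and 11.8 and 21.2 in IV-D. They were also the points farthest from the line of equal values in the plot of both clone groups, and the recipient oocytes held 0.169 and 0.102 times their IV-D oocyte level.

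KARS1, the lysyl-tRNA synthetase, was at 6.15, 10.9 and 19.6 FPKM in IV-D, NT-D and NT-LW 4-cell embryos, and SVOPL, of a transporter family, at 8.53, 22.7 and 34.9. In both the order was IV-D, NT-D, NT-LW. MACROD2, an ADP-ribose hydrolase, at 6.02, 3.44 and 6.05, and GGCT, of glutathione turnover, at 4.03, 2.95 and 5.03, were lowest in NT-D.

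The oocytes themselves were compared by the same rule. In recipient oocytes 13 genes were higher and 8 lower than in IV-D oocytes, where 13.3% of all genes tested were higher and 1.51% lower, and of the other oocyte-abundant genes 4.4% and 3%. The selection required high IV-D oocyte values, which favours lower recipient oocytes. Under median-ratio scaling the lower genes numbered 29. The 8 lower genes were ANKS4B, ATP5ME, SLC25A31, SNX7, the ribosome biogenesis gene KRR1 and 3 genes without a symbol. The highest fold on the other side was that of CCNP, at 139 against 34.7 FPKM. All 221 genes were above 1 FPKM in the recipient oocytes, 211 reached 20, and the lowest was at 10.9.

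After the 4-cell stage the list split. In IV-D 115 genes remained at or under 0.25 of the oocyte in all 4 later libraries, where 31.4% of all oocyte-abundant genes were. In at least 1 of them 76 returned to 0.5 of the oocyte or more, where 54.7% of all genes with at least 20 FPKM in the IV-D oocyte reached that level. Of the 76, 57 were back at the 8-cell stage, and 53 of the 221 were above the oocyte at some later stage, against 38.2% of all oocyte-abundant genes. In the clones, where genes that had never fallen to 0.25 are counted too, 78 were at 0.5 of the oocyte or more in a later NT-D library and 82 in a later NT-LW library, against 59.9% and 57.7% of all genes abundant in the recipient oocyte. In all 3 groups 64 were, against 50.1% of the genes abundant in the IV-D oocyte. Of the 76, 35 had been cleared in both clone groups at the 4-cell stage and 35 in neither, and of the 145 that did not return 72 and 55.

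PLIN2, which coats lipid droplets, had a large return. It was at 44.3, 49.0, 16.2 and 10.3 FPKM up to the 4-cell stage in IV-D and at 829 in 8-cell embryos, 492 in morulae, 551 in IT and 189 in TE. In NT-D the values were 51.3, 26.2, 25.4, 19.1, 98.3, 493, 714 and 512, and in NT-LW 47.1, 24.3, 20.6, 35.5, 485, 373 and 312 from the 1-cell stage. The IV-D level was thus more than 8 times that of either clone group at the 8-cell stage, and the groups were alike at the morula stage.

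ACADM, the medium-chain acyl-CoA dehydrogenase of fatty acid oxidation, was at 137, 115, 124 and 32.8 FPKM in IV-D and then 729, 333, 199 and 297. In the 8-cell clones it was at 269 (NT-D) and 331 (NT-LW). KARS1 was at 73.8 FPKM in IV-D 8-cell embryos and at 34.7 and 28.6 in the clones, and the 3 groups were at 107, 102 and 98.5 in morulae. In these 3 genes the 8-cell clones were lower than IV-D. PLIN2, ACADM and KARS1 were named for a large return in the later IV-D libraries, the 8-cell library among them. That choice favours high IV-D values, so this difference is read as a description only.

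Other genes were alike or higher in 8-cell clones. DERA, an aldolase of deoxyribose breakdown, was at 24.4 FPKM in IV-D oocytes, 0.538 in 4-cell and 32.4 in 8-cell embryos, and at 1.70 and 1.48 in 4-cell and 41.7 and 45.7 in 8-cell clones. NDUFS5 was at 265, 370 and 393 in 8-cell embryos of IV-D, NT-D and NT-LW, NDUFV2 at 79.7, 81.3 and 92.9, and PPA1 at 195, 364 and 516. PSMA1 was at 549, 458 and 506. The prostaglandin reductase gene PTGR2 was at 34.6, 48.8 and 36.5, and ANAPC13, a subunit of the anaphase-promoting complex, at 38.5, 75.5 and 88.0.

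At the 8-cell stage, whose libraries the selection did not use, 63 of the 221 genes were higher in NT-D than in IV-D and 23 lower, where 10.8% and 17.4% of all genes tested and 16.3% and 8.12% of the other oocyte-abundant genes were. In NT-LW 79 were higher and 24 lower, against 16.3% and 17.3% of all genes and 23.9% and 7.85% of the other oocyte-abundant genes. The median difference was 0.47 and 0.68 on the log2 scale, and 0.17 and 0.28 over the other oocyte-abundant genes. OOSP2, at 266 and 283 FPKM in the clones against 33.9 in IV-D, was among the genes that were higher. Relative to the oocyte, the 8-cell medians of the 221 genes were 0.145 in IV-D, 0.215 in NT-D and 0.223 in NT-LW. High values in the IV-D oocyte, the divisor for IV-D, chose the genes, which favours a lower IV-D ratio. Another 650 oocyte-abundant genes, outside the list, were at or under 0.25 in IV-D 8-cell embryos, and had medians of 0.078, 0.152 and 0.209. Low IV-D 8-cell values chose those 650, so higher clones there are built in.

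At the edge of the selection, TMEM60, HILPDA and SRPX lay just inside the limit of 0.25, with IV-D 4-cell values of 0.249, 0.248 and 0.248 of the oocyte, and ERO1B, SDE2 and NUP85 just outside at 0.252, 0.252 and 0.253. SLC44A5, ASTN2 and CLDN10 lay just above 20 FPKM in the oocyte, at 20.5, 20.7 and 20.8, and DCTN6, CMTM7 and SLC9B1 below it at 19.9, 19.8 and 18.8. In all, 87 of the 221 genes were above 0.2 of the oocyte, and 83 genes outside the list were at or under 0.3. Scaling moved this edge: median-ratio factors lowered the IV-D 4-cell values relative to the oocyte by a log2 shift of -0.42, which gave 410 genes under the same limits. The same factors moved NT-D and NT-LW 8-cell values relative to their oocyte by -0.24 and -0.34, and NT-D 4-cell values relative to IV-D by 0.11.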

How the data were processed

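The authors amplified cDNA from pooled oocytes or embryos with SMART-Seq v4, sequenced paired ends, aligned them to Sscrofa11.1 with HISAT2 2.0.4, counted with HTSeq 0.9.1 and deposited FPKM values, scaled by library depth and gene length. The name under which the values were deposited labels the 8603 genes as DEG, the paper's term for differentially expressed genes. How they were chosen is not given in the sources used here. All shares of genes above are therefore shares within this set and not of the whole transcriptome. Columns of other samples numbered 0. Donor cells and added replicates were not used here.

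The selection was applied to the deposited values. Levels were divided by the oocyte of the group, with NT-D-OC for both clone groups. Pools were compared by log2(FPKM + 1) with a pseudocount of 1, a difference over 1 and a minimum of 1 FPKM. FPKM values are multiples of what 1 fragment is worth, which returned whole fragments for 100% of genes, within 0.01 of a fragment (1e-07 of counts over 100000), and gave depth, counted length and exact (Clopper-Pearson) 95% intervals of the ratio of 2 libraries, which cover counting error only. A count of 0 was given a limit of 3 fragments. Tested on simulated data, the recovery gave every fragment number for 99.99% of 8603 genes, and for NT-D against NT-LW 4-cell embryos 100% of 200 genes given an 8-fold change passed the fold rule, with 0% of the others. These genes and the others all had mean counts over 200 fragments in both libraries, and only counting error was simulated. At such counts both rates were fixed in advance, so they do not measure false calls from variation between pools. With 1 library per condition no p-value was computed.

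The members, the gene lists and the comparisons were chosen with earlier results of these data known. Named genes, among those with a symbol, were the 10 highest in IV-D oocytes, the 8 lowest at the IV-D 2-cell stage relative to the oocyte, the 10 with the largest difference shared by both clone groups over IV-D at the 4-cell stage, the 5 most different in each direction between the clone groups, the 8 with the largest return in later IV-D libraries, at most 4 per list, and those nearest the limits. Other names were chosen after their values were seen. Lists were the subcortical maternal complex, zona pellucida, oocyte-secreted factors, meiosis, mRNA decay, mRNA storage, oocyte transcription factors, chromatin factors, other oocyte transcripts, cyclins, respiratory chain, cytosolic and mitochondrial ribosome, proteasome, ubiquitin enzymes, zinc fingers, solute carriers, spindle, and markers of cumulus, immune, oviduct, sperm and fibroblast cells. Gene symbols came from a table of Ensembl identifiers, which matched 7371 genes, and positions, 3′UTRs and sequences from RefSeq on Sscrofa11.1, by symbol. Alternatives were 2 other scalings, other limits, another oocyte library, and other pseudocounts and minimums. Software was pysam 0.24.0, pandas 2.3.3, scipy 1.17.1, numpy 2.4.6 and matplotlib 3.10.9, under python 3.11.15.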

Additional observations from a re-analysis of the deposited data

Results flagged for a closer look

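In 5 of the early-cleared genes with a symbol the 4-cell value lay under that of the oocyte in IV-D, as the selection required, and above that of the recipient oocyte in both clone groups, so that the groups moved in opposite directions. Of all 221 genes 13 lay above the oocyte at the 4-cell stage in each clone group, and of the 1865 other oocyte-abundant genes 40.8% did in NT-D and 39.9% in NT-LW. The NT-D 4-cell level relative to the oocyte was 1.35 for ATP5ME, 2.08 for DAPL1, 1.32 for ANKS4B, 1.08 for YIPF1 and 1.25 for SLC44A5. In each of the 5 the recipient oocyte held less than the IV-D oocyte, as for YIPF1, of a Golgi membrane protein family, at 26.1 against 48.7 FPKM. The difference between the groups was not tested, since each value comes from 1 library. IV-D was selected to be high in the oocyte and low at the 4-cell stage.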

How the results depend on the processing

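The 12 counts were recomputed under 63 alternatives, of which 51 stayed within 1.5 times the reported count and 12 did not. Genes of the list were kept fixed, except where the list itself was recounted. The list of 221 became 410 under median-ratio scaling, 141 with an oocyte minimum of 50 FPKM and 48 with a limit of 12.5% of the oocyte. At a limit of 0.5 the genes cleared in NT-D 4-cell embryos became 175 instead of 113. At a limit of 12.5% they became 42, and those of NT-LW 48. The 6 genes higher in NT-D than in NT-LW 4-cell embryos became 10 after rescaling to a sum of 1000000, 11 under median-ratio scaling and 10 with a pseudocount of 0.1. The 8 genes lower in recipient than in IV-D oocytes became 29 under median-ratio scaling, which shifts that comparison by -0.38 on the log2 scale. The 17 genes that had reached 0.25 by the IV-D 2-cell stage became 26 after rescaling to that sum and 83 at a limit of 0.5. The cause of these changes was not tested.

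No paired analysis was possible because each condition has 1 library. For the same reason no replicate was left out. Without the 8-cell library the genes back at 0.5 of the oocyte in IV-D numbered 73 instead of 76. Variation between pools of embryos was not measured here. The paper describes replicate pools of some stages, not used here, and found those of 4-cell embryos relatively variable. The selection rests on a single IV-D library of that stage. Values under about 30 fragments carry wide counting intervals, such as 0.486 to 3.52 for the ratio of CCNP between NT-D and IV-D 4-cell embryos.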

Other observations

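The early-cleared genes, 10.6% of all oocyte-abundant genes, were spread over the lists as follows. Of the 17 listed meiotic arrest and maturation genes with at least 20 FPKM in the IV-D oocyte, the 10 maternal chromatin factors, the 7 cyclins and CDK regulators, the 15 zinc finger genes, the 3 oocyte-secreted factors and the 2 oocyte transcription factors, 0 were among the 221 genes. The lists do not hold every gene of a family. CCNP, of the cyclin family, was among the 221 genes but not on the cyclin list. TRIM50, PEX2 and CUL1 were among them but not on the list of ubiquitin enzymes. The median level at the IV-D 4-cell stage relative to the oocyte was 0.792 for the meiotic genes, 1.10 for the chromatin factors, 0.983 for the cyclins, 0.795 for the zinc finger genes, 1.04 for the secreted factors and 0.427 for the transcription factors. Of 7 storage and translation genes 1 was early-cleared, of 28 ubiquitin enzymes 1, and of 26 spindle and kinesin genes 1, DYNC2LI1, a light intermediate chain of the ciliary dynein, which was at 1264 FPKM in IV-D oocytes, 289 in 4-cell and 9.52 in 8-cell embryos, and at 186 and 162 in 4-cell clones. Early-cleared genes were 1 of 17 cytosolic ribosomal proteins, 2 of 21 mitochondrial ribosomal proteins, 1 of 3 zona pellucida and egg surface genes, 2 of 13 other oocyte transcripts and 1 of 2 cumulus markers at this level. The 8 oviduct and 5 sperm markers of the table held 0 early-cleared genes, and their sums were 21.7 and 74.6 FPKM in IV-D oocytes and 32.4 and 67.3 in recipient oocytes, the latter mostly LDHC, a lactate dehydrogenase of germ cells.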
